A study of Caenorhabditis elegans with 2 samples.

Results

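The combined ranked list used here, from a chromatin immunoprecipitation sequencing (ChIP-seq) series on the nematode Caenorhabditis elegans, held 9477 candidate regions. Of these, 149 passed the authors' limit on reproducibility but were absent from the thresholded list, and they were set aside. Of the other 9328, called all candidates here, 352 lay on the autosomes, outside genes and promoters, and in repeated sequence. A region was taken where its summit fell outside every protein-coding and RNA gene and every promoter (500 bp upstream to 100 bp inside a transcription start site). More than 20% of the 24-base words (24-mers) within 130 bp of the summit also had to occur 5 or more times in the genome, assembly ce11. Position and sequence criteria did not use the signal of a peak, but the 149 were set aside by its reproducibility score. In strain RW12270 the gene Y53F4B.3 had been edited by CRISPR at its own locus so that its protein carried TY1, EGFP and 3xFLAG tags. The precipitation used anti-GFP antibody. They were whole young adults aged 64 h, grown after starvation as L1 larvae. There was 1 group with 2 biological replicates from this 1 strain, and neither worms without the tag nor an input library were analysed here. Whether the antibody recovered DNA at any region through the tagged protein was therefore not tested.

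Y53F4B.3 is annotated as pole-4. In other organisms the protein of this name is a histone-fold subunit of DNA polymerase epsilon, which copies DNA during replication. Repeated DNA takes several forms. In a tandem array a short unit is copied head to tail at 1 place, whereas copies of a transposon are scattered over many places. In C. elegans, repeats are known to be more common on the chromosome arms than in the centres. Short arrays can also be dispersed, so that similar units recur at many places.

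The authors deposited ranked lists of all candidates and thresholded lists of those that passed an irreproducible discovery rate (IDR) of 0.01. The IDR of a peak is the estimated share of irreproducible peaks among those ranked at least as high. The authors gave 2 combined pairs of lists, each with a ranked and a thresholded list. The pair used here is called larger after its thresholded list, with 465 regions against 437 in the other, conservative pair. Its ranked list of 9477 candidates is the shorter of the 2, since the conservative one holds 12529. Regions of the larger thresholded list are called listed here. Of the 352 members, 78 were listed and 274 were not. A further 103 candidates met the same sequence rule and passed the IDR limit but were absent from the thresholded list; they are kept apart and called left out. They were 103 of 149 such regions in the whole series. The replicates did not contribute evenly. Of the 78 listed members, 52 overlapped a ranked candidate of replicate 1, and 76 overlapped one of replicate 2. The imbalance fell on arrays of units of 20 and 25 bp, described first, so the main counts are also given without them.

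Windows of the reference around summits show what the members consist of. The unit types were set after the values were seen, from 1 region each. Each pair below gives the region that set the type and another strong listed one at another place. The region that set the type was the strongest listed one with that unit length, taken as 19 bp for the 20-bp unit. Sequences are from the RefSeq genome of build ce11, with both of a pair read in the same direction. In the 20-bp unit the capitals mark the word TAGATTGA, which recurred every 19 or 20 bases, 8 times in each window. In the 25-bp unit they mark AGCCAGAG, found 7 times in each window. In the 40-bp unit they mark matches to GAANNTTC, of which each window held 10. The inverted GAA blocks of this motif are the core of the heat shock element, the site known to be bound by heat shock factor HSF-1.
20-bp unit, chrIII:3770482-3770642, plus strand: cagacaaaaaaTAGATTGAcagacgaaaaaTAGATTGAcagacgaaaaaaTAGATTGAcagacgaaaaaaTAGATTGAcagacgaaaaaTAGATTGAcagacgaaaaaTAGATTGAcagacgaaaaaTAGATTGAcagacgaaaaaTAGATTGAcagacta
20-bp unit, chrIII:1252524-1252684, plus strand: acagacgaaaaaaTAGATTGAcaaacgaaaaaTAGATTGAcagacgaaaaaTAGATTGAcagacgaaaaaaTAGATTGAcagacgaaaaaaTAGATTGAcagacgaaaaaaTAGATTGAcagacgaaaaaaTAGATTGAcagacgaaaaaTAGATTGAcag
25-bp unit, chrIII:2497915-2498075, plus strand: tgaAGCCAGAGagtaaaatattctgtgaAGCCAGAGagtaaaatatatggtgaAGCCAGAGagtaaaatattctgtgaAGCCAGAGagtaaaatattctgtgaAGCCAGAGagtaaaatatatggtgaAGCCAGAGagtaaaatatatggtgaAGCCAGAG
25-bp unit, chrIII:3335060-3335220, minus strand: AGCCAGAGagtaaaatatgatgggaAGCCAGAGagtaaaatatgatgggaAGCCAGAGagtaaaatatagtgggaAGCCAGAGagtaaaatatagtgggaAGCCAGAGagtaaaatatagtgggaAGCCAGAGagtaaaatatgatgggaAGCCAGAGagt
40-bp unit, chrIV:15895984-15896144, plus strand: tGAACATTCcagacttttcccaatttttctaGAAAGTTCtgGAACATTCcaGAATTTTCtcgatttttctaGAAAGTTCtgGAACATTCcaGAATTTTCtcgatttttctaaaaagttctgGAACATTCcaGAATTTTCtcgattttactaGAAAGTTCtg
40-bp unit, chrIV:16458484-16458644, plus strand: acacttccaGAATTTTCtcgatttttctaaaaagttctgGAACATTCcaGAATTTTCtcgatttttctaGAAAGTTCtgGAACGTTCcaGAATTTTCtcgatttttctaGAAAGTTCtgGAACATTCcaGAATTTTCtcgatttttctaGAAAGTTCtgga

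A window was assigned to a unit where 12-base words that recurred in the type region covered at least 25% of it. Of the members, 27 held the 20-bp unit, 28 the 25-bp unit and 36 the 40-bp unit. No window reached 25% for more than 1 unit. The names of the units are approximate. The 20-bp class held units of 19 and 20 bp. In the 25-bp class, the most frequent unit length was 25 bp in 15 of 27 members in an array and 27 bp in 4. Another 55 members lay in other arrays, meaning that at least 50% of their repeated words had a further copy on the same strand within 200 bp. The remaining 206 were not in an array. The units differed in base composition, with a median GC content of 28.7% in members of the 20-bp unit, 36.8% in those of the 25-bp unit and 33.7% in those of the 40-bp unit. Members that were not in an array had a median of 42.5%, and all autosomal candidates 38.7%.

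Members were listed more often than the candidates as a whole. The listed share was 22.2% of 352 members (95% interval 17.9% to 26.9%), against 4.98% of all 9328 candidates. Among 1459 autosomal intergenic candidates in unique sequence it was 2.88%. Intervals on shares are exact Clopper-Pearson limits and cover counting error only; with 1 group no test was possible, and regions that share a sequence are not independent. Members of the 20-bp and 25-bp units were listed in 36 of 55 cases, or 65.5%. Without them, 42 of 297 members were listed, or 14.1% (10.4% to 18.6%). The 40-bp unit was listed in 13 of 36 members, other arrays in 3 of 55, and members that were not in an array in 26 of 206.

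Listing depended on which lists were used. Counting the left-out candidates as listed members gave 39.8%, and the conservative lists, the stricter of the authors' combined lists, gave 11.9%. The own lists of replicate 1 gave 7.25% and those of replicate 2 gave 9.51%. The share over all ranked candidates, with none set aside, also differed between lists. It was 4.91% in the larger list, 3.49% in the conservative one, 1.58% in replicate 1 and 0.915% in replicate 2. The 4.91% counts 465 listed regions of 9477 and leaves the 149 that passed without being listed as not listed. It is therefore no like baseline for the 39.8%, which rises because every region added had passed the limit.

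The signal value is the score the authors' peak caller gave each peak in the larger list. Listed members had a median signal of 129.6, and members that were not listed 47.3. This gap is set by the choice of members, since every member that was not listed had failed the IDR limit and the left-out candidates are not among them. Across all candidates the median was 42.4, and across all listed peaks 103.2. Listed members of the 20-bp unit ranged from 58.0 to 682 with a median of 144.5, and those of the 25-bp unit from 42.2 to 662 with a median of 144.6. The listed 40-bp members ranged from 80.1 to 486, with a median of 121.4. The listed members that were not in an array reached at most 270, with a median of 121.7. Members made up 22 of the 50 strongest listed peaks of the larger list, and 78 of all 465 listed peaks.

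**Figure D1:**
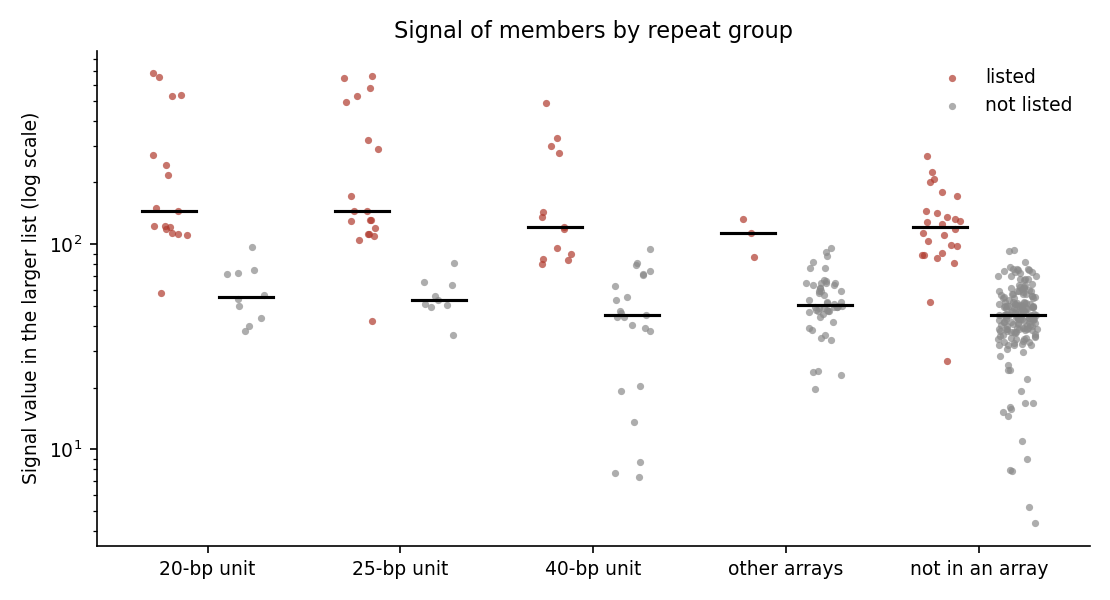
Signal value in the larger list (log scale) of each of the 352 members, by repeat group, with listed members on the left of each pair and members that were not listed on the right; black lines are medians. The 4 highest points of the 20-bp group and the 5 highest of the 25-bp group lie near 500 or above, and no member that was not listed exceeds 97; the unit types were set from the strongest listed regions, and candidates that passed the limit without being listed are not plotted.

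The 20-bp unit had its strongest member at chrIII:3770480-3770659, 234 bp downstream of gmeb-3. Its signal was 682 in the larger list, 55.3 in replicate 1's own ranked list and 623 in that of replicate 2; signal values share no scale between lists. The region ranked 399 in replicate 1 and 40 in replicate 2, and the thresholded list of replicate 2 alone held it. A region at chrI:13273637-13273840, 935 bp downstream of vet-6, had a signal of 655 and was listed in both replicates, ranking 214 in replicate 1 and 45 in replicate 2. It was the only 1 of the 17 listed members of this unit listed in replicate 1. A region 750 bp downstream of fbxa-77, an F-box gene, at chrIII:1252520-1252698 had a signal of 536; it ranked 10792 in replicate 1 and 53 in replicate 2. The region at chrV:658212-658404, 149 bp downstream of F31F4.17, had a signal of 529, ranked 52 in replicate 2 and overlapped no candidate of replicate 1.

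Across the 17 listed members of the 20-bp unit, 5 overlapped a ranked candidate of replicate 1 and 16 overlapped one of replicate 2. Of these 17, 1 was listed in replicate 1 and 16 in replicate 2. Only 3 were in the conservative list. The unit occurred at 51 places in the genome with at least 100 bp of array, 11 of them on the X chromosome and 40 in chromosome arms. A summit of a ranked candidate of replicate 1 lay in 14 of the 51 arrays, and one of replicate 2 in 41. The longest array spanned 2436 bp and the median 368 bp. The 16 listed members that lay in such an array sat in arrays with a median span of 913 bp, and the 8 that were not listed in arrays of 301.5 bp. The listed members lay in only 12 different arrays, and an array with several peaks was counted for each of them.

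Members of the 25-bp unit were 6 of the 12 strongest listed members. The highest, at chrIII:2497906-2498086, had a signal of 662; it was listed in both replicates and ranked 141 in replicate 1 and 44 in replicate 2. The nearest protein-coding gene, Y54F10AL.1, was 3655 bp away. A second peak of the same array, at chrIII:2499385-2499572, had a signal of 647 and ranked 133 and 43 in replicates 1 and 2. This array spanned 4698 bp. A region at chrIII:3335049-3335223, 1162 bp downstream of Y53G8AR.1, had a signal of 577. The median share of a repeated word's copies that lay within 10 kb was 100% there, with a median copy number of 67, although some of its words also occurred on the other chromosomes. At the strongest region that share was 32.1%, with a copy number of 218.

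The other named regions of the 25-bp unit lay on chromosomes V and I. The region at chrV:14756648-14756835, whose nearest gene was nspa-10 at 6301 bp, had a signal of 527 and ranked 722 in replicate 1 and 54 in replicate 2. On chromosome I, 2 peaks of the same array downstream of pqn-21, a gene of the prion-like class rich in glutamine and asparagine, had signals of 495 at chrI:6773016-6773184 and 321 at chrI:6773725-6773984. They lay 874 and 118 bp from the gene, in the centre of the chromosome. Both had ranked candidates in both replicates, at ranks 203 and 253 in replicate 1 and 61 and 85 in replicate 2.

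All 19 listed members of the 25-bp unit overlapped a ranked candidate of replicate 2, and 7 overlapped one of replicate 1. Of the 19, 3 were listed in replicate 1, 18 in replicate 2 and 6 in the conservative list. The 9 members that were not listed had a candidate in replicate 2 in every case and in replicate 1 in none. The 19 listed members lay in 8 arrays, so they are far fewer independent places than peaks. Across the genome there were 43 arrays of this unit, with a median span of 1394 bp and a longest span of 7944 bp. Summits of replicate 2 candidates lay in 42 of the 43 and those of replicate 1 in 25. Of the 26 arrays of 1000 bp or more, 21 held a candidate of replicate 1 and 26 one of replicate 2. The ranked list of replicate 2 was longer, with 27101 candidates against 18181 for replicate 1, and the part of that length in these counts was not tested.

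The 103 left-out candidates were mostly of these units, with 42 of the 25-bp unit, 15 of the 20-bp unit, 5 of the 40-bp unit, 39 in other arrays and 2 that were not in an array. Their median signal in the larger list was 271.3, higher than that of listed members, and the highest was 4825 at chrV:16708807-16709182, in an array of the 20-bp unit. That region ranked 6 in replicate 1 and 2 in replicate 2. No array held both a listed member and a left-out candidate, for any of the 3 units. Of the left-out candidates, 84 overlapped a ranked candidate of replicate 1 and 101 overlapped one of replicate 2. The left-out regions of the 20-bp and 25-bp units thus had a candidate in replicate 1 in 12 of 15 and 31 of 42 cases, against 5 of 17 and 7 of 19 for the listed members. For the 25-bp unit this may set unlike sequences side by side. Units of 27 bp were common among its left-out regions with the highest signals. The median GC content was 40.2% in its left-out regions and 36.8% in its listed members. The authors' read-me texts name no reason for their absence from the thresholded list.

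**Figure D2:**
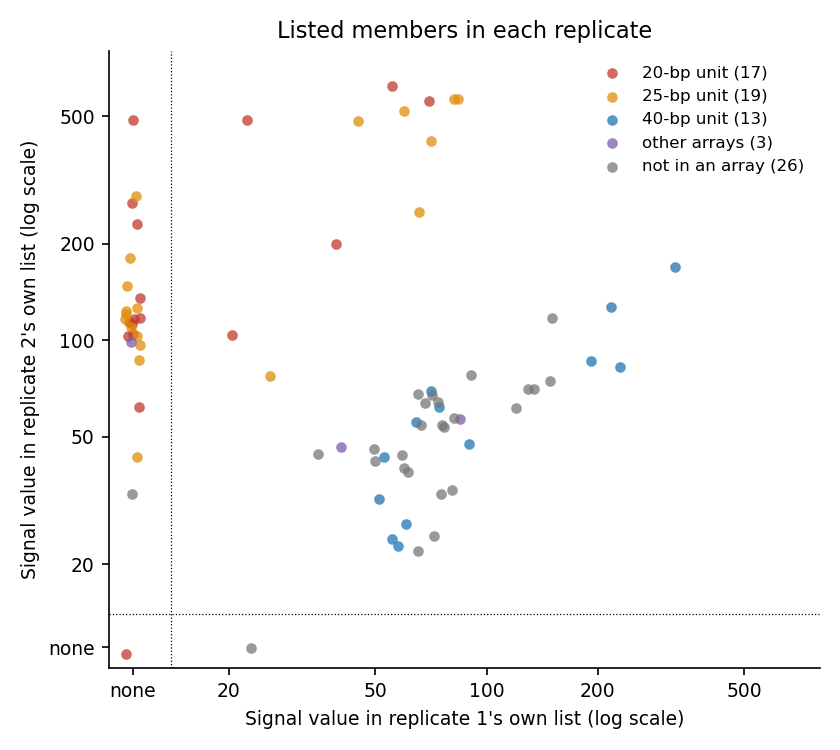
Signal value of the 78 listed members in the ranked list of replicate 2 (vertical, log scale) and of replicate 1 (horizontal, log scale), coloured by repeat group, with regions that overlap no candidate placed at "none". Listed members of the 20-bp and 25-bp units stand mostly at "none" for replicate 1 with up to 623 in replicate 2, while the 13 of the 40-bp unit have values in both lists. The 2 axes share no scale.

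Listed regions of the 40-bp unit were found in both replicates, but over all 36 members of the unit 23 had a ranked candidate in both, 63.9% (46.2% to 79.2%). All 13 listed members overlapped a ranked candidate of each replicate; 10 were listed in replicate 1, 8 in replicate 2 and 9 in the conservative list. The strongest, at chrIV:15895984-15896126, lay 1831 bp upstream of srv-14, a chemoreceptor gene. Its signal was 486 in the larger list, and it ranked 11 in replicate 1 and 112 in replicate 2. The next, at chrIV:16458520-16458624, had a signal of 331 and ranked 25 and 127 in replicates 1 and 2; the nearest gene, VY10G11R.1, was 10974 bp away. Summits of ranked candidates of replicate 1 lay in 60 of the genome's 110 arrays of this unit, and those of replicate 2 in 44, although the list of replicate 2 was the longer. Its 13 listed members lay in 13 different arrays with a median span of 416 bp. The 21 members that were not listed and lay in an array had a median span of 1317 bp, and the 5 left-out candidates 8152 bp. Listed members of this unit thus sat in shorter arrays, unlike those of the 20-bp unit. The 21 members that were not listed shared 11 arrays, however, and an array with several peaks was counted for each of them.

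GAANNTTC, searched as these 8 letters with N as any base (the word is its own reverse complement), occurred in all 36 windows of the 40-bp unit, with a median of 15 matches and at most 22. At least 3 matches occurred in all 36 of these windows, in 51 of 352 member windows (14.5%), and in 1.22% of the 8164 autosomal candidate windows of the same length. The stretch of the type region printed above held 10 matches, but it is shorter than the windows counted here. Those 10 are therefore not comparable with the median and maximum. The other windows of the unit were assigned by the words of the type region, which itself held the motif. The count of 36 thus follows in large part from the assignment. Elsewhere, at least 3 matches occurred in 5 of 55 members in other arrays and in 10 of 206 that were not in an array. Neither the 27 windows of the 20-bp unit nor the 28 of the 25-bp unit held a match. The telomere hexamer TTAGGC with 2 copies in a row, searched on both strands, was in 3 of 352 member windows, 0.852%, and in 1.04% of autosomal candidate windows.

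Few of the members in other arrays were listed, but many candidates of this kind were left out. The 55 members of this group had repeat units of many lengths, the most frequent being 26 bp in 6 members and 123 bp in 4. Their median signal was 51.4. The 3 listed ones lay at chrIV:2755511-2755770, at chrI:10132140-10132399 and at chrII:1452022-1452281, with signals of 132.1, 113.7 and 87.0. All 3 were listed in replicate 2, and the first also in replicate 1. They were named because there were only 3, after their values were seen. The listed share of this group was 5.45% (1.14% to 15.1%), beside 4.98% of all candidates. Another 39 candidates in other arrays passed the IDR limit and were left out, with a median signal of 157.3. Counted as listed, they brought the share to 42 of 94, 44.7% (34.4% to 55.3%). The rise follows from the counting, since every left-out candidate had passed the limit. The same recount gave 76.2% for the 20-bp unit, 87.1% for the 25-bp unit, 43.9% for the 40-bp unit and 13.5% for regions outside arrays. Of all 9477 ranked candidates, 465 were listed and 149 passed the limit without being listed.

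Members outside arrays were listed in 26 of 206 cases, 12.6% (8.41% to 17.9%). Of the 26 listed ones, 24 overlapped a ranked candidate in both replicates. In replicate 1 20 were listed, in replicate 2 17, and in both 14. In the conservative list were 21 of 26. Their copy numbers were low, with a median of 13.5 occurrences for the listed and 18.0 for those that were not listed. A blastn search of each window asked for alignments over 80% of its length at 80% identity or more. In 93 of these 206 windows, and in 20 of the 26 listed ones, only the window itself met this. The repeated words thus made up a part of most listed windows, with a median repeat share of 38.0%.

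A group of these listed regions shared one short word. Of the 26 listed members that were not in an array, 7 held the 12-base word CACGGCCCGGCG or its reverse complement. No other word was found in more of these windows, and it was picked for that, so the count is a description. None of the 180 members outside arrays that were not listed held it. In the whole genome the word occurred 26 times, none of them on the X chromosome and 24 in chromosome arms. A listed summit of the larger list lay within 130 bp of 7 of the 26 places, and a ranked candidate within 130 bp of 9. Windows of 4 of these regions are given below in the same direction, from the RefSeq genome of build ce11, with the word in capitals. In 3 of them the 40 bases to the right of the word were also the same.
Near C46C2.7, chrIV:9196369-9196519, minus strand: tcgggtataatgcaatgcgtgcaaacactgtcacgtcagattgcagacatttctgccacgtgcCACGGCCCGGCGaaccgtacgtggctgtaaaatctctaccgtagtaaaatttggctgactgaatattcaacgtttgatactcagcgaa
Near K08F11.1, chrIV:4725486-4725636, plus strand: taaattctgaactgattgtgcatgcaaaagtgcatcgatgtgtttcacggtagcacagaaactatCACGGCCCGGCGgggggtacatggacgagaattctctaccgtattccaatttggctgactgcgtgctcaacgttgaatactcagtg
Near Y116A8A.150, chrIV:16845484-16845634, plus strand: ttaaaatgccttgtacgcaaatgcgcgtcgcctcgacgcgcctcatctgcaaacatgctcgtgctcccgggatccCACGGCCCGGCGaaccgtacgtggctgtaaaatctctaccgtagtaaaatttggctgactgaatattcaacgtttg
Near K07D4.2, chrII:4047948-4048098, plus strand: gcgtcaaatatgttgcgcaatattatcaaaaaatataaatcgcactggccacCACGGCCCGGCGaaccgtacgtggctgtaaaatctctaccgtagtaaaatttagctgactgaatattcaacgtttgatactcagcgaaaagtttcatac

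The 7 regions with this word had signals of 110.6 to 270 in the larger list. In replicate 1 their signals were 150.6, 81.5, 68.0, 76.8, 75.9, 75.3 and 120.4, and all 7 were listed there. In replicate 2 the first 6 of those regions had 117.5, 57.2, 63.9, 53.7, 54.3 and 33.2, and the last had 61.6; 6 of the 7 were listed. Each region was present in both replicates. This also held for 24 of all 26 listed members outside arrays and for all 13 of the 40-bp unit. It did not hold for most listed 20-bp and 25-bp regions. The word lay 3 to 20 bp from the summit. The strongest region, at chrIV:9196314-9196573, had a copy number of 7 and was in the centre of its chromosome. By shared words it belonged to a family of 4 members, all listed. A related pair was also listed in full; its strongest region lay 610 bp upstream of rpa-2, which encodes a subunit of the single-strand DNA binding complex replication protein A.

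Grouping all members by shared 24-mers, with a link where windows had 20% of the words of the smaller window in common, gave 190 families. Of these, 146 held 1 member, and only 7 listed members stood alone. The largest family chained 27 members of the 25-bp unit to 21 of the 40-bp unit, so it joined unlike sequences, and 27 of its 48 members were listed. The second held 28 members, 26 of them with the 20-bp unit, and 17 were listed. Another family of 13, on chromosomes I, IV and V, had 4 listed, of which the strongest, upstream of fbxa-215 at chrIV:13667995-13668254, had a signal of 89.9. A pair at chrIV:2756255-2756324 and beside it, near Y54G2A.41, was listed in full, the stronger with a signal of 135.8. These 2 families held the 40-bp unit in part.

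Outside the 3 units, 5 families had at least 5 members, with few listed ones or none. A family of 5 led by chrII:11534951-11535044, 127 bp downstream of Y62F5A.9, had 2 listed; its leader had a signal of 225 and was listed in both replicates. A family of 6 led by a region 3598 bp upstream of vha-14, a vacuolar ATPase gene, also had 2 listed, although the leader itself, with a signal of 75.7, was not. None was listed in the family of 6 led by a region upstream of the histone gene his-70, with a top signal of 72.6. The same held for the family of 5 led by a region near pdfr-1, a neuropeptide receptor gene, and for a family of 5 near T02H6.11 with a median GC content of 57.5%. A family of 6 near dop-2, a dopamine receptor gene, held the 40-bp unit and had none listed either. Small families included 1 of 3 members led by chrIV:4727900-4728159 with 2 listed and a top signal of 200.0, and 1 of 3 on chromosome V near F57A10.2 with 2 listed and a top signal of 132.1.

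Copy number, the median number of genome occurrences over a window's repeated 24-mers, ranged from 5.00 to 409 with a median of 25.8 over all members. It was 62.0 for listed members and 23.8 for members that were not listed. Listed members were 11 of 62 at 5 to 9 copies, 17 of 81 at 10 to 19, 23 of 142 at 20 to 99, and 27 of 67, or 40.3%, at 100 or more. Without the 20-bp and 25-bp units, the share at 100 or more copies was 7 of 33, 21.2% (8.98% to 38.9%), and below 100 copies 35 of 264, 13.3% (9.41% to 18.0%). The intervals overlapped. The blastn search gave a median of 22 copies at 80% identity and 7 at 90%. For the 25-bp unit these medians were 216 and 80.5, so most alignments found at 80% identity were not found at 90%.

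Most repeated words of the members were scattered over the genome. Copies within 10 kb of the summit made up a median of 10% of a window's occurrences, and in 264 of 352 members the words occurred on all 5 autosomes and X. By the rule that at least 50% of copies lie within 10 kb, 50 members were tandem (14.2%, 10.7% to 18.3%) and 302 dispersed. Of these, 11 of 50 tandem members were listed, 22% (11.5% to 36%), and 67 of 302 dispersed ones, 22.2% (17.6% to 27.3%). The order of the shares changed with the lists used: 63.9% of tandem and 32.3% of dispersed members with the left-out candidates counted as listed, and 5.56% and 12.9% in the conservative lists. With replicate 2's own lists they were 9.74% and 9.47%, and with those of replicate 1 they were 1.79% and 7.96%. Without the 20-bp and 25-bp units they were 5.00% and 15.6%. Many dispersed members were nonetheless short arrays, since 89 of the 135 members in an array had most copies elsewhere. Of members in an array, 48 of 135 were listed (35.6%, 27.5% to 44.2%), and of those below this limit 30 of 217 (13.8%, 9.53% to 19.1%). The 217 are the 206 described above and 11 members of the 3 units, 4 of them listed, in which fewer than 50% of the repeated words had a further copy within 200 bp. This last definition was chosen after the data were seen. Inverted copies within 2 kb of at least 50% of the repeated words occurred at 25 members, 5 of them listed.

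**Figure D3:**
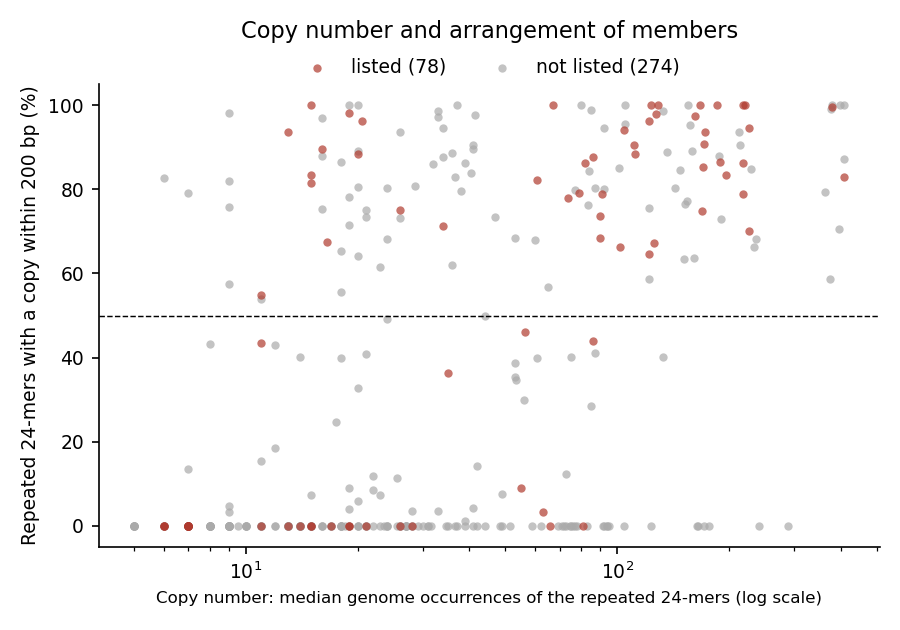
Share of a member's repeated 24-mers with a further copy on the same strand within 200 bp (vertical, %) against copy number (horizontal, log scale), with 78 listed members in red and 274 that were not listed in grey; the dashed line is the 50% limit for an array. Of 135 members above it 48 are listed, and of 217 below it 30.

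Members lay mainly on chromosome arms, taken as the outer parts when each autosome is cut into 3 equal lengths. This held for 271 of 352, 77% (72.2% to 81.3%), against 64.6% of 8164 autosomal candidates and 67.6% of the autosomal intergenic candidates in unique sequence. The arms also held 80.2% of the 4419972 positions of the autosomes where a repeated 24-mer starts, so the members' share was close to that of repeated sequence. Listed members were on arms in 69 of 78 cases, 88.5% (79.2% to 94.6%), and members that were not listed in 202 of 274, 73.7% (68.1% to 78.8%). Listed autosomal intergenic peaks in unique sequence were on arms in 25 of 42 cases, 59.5% (43.3% to 74.4%). All 13 listed members of the 40-bp unit were on arms, against 13 of 23 that were not listed. Arms also held 77 of the 94 autosomal arrays of this unit, intergenic or not. The 13 listed ones lay in 13 different arrays, whereas the 21 that were not listed and lay in an array shared 11. Several of the latter were peaks of an array of 8152 bp in the centre of chromosome V, so these are not counts of independent places. Without the 20-bp and 25-bp units, 37 of 42 listed members were on arms, 88.1%.

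**Figure D4:**
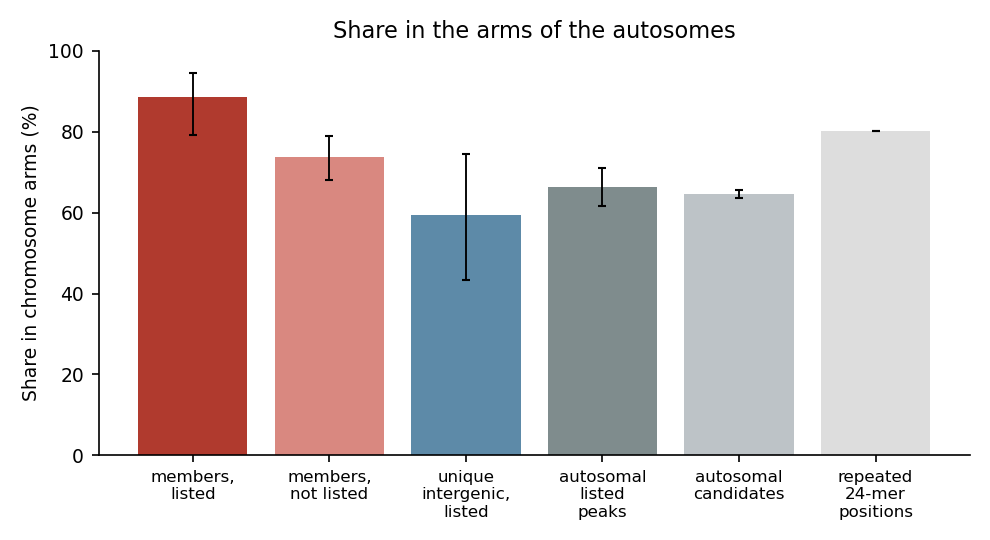
Share in the outer parts of the autosomes cut into 3 equal lengths (%) for listed members, members that were not listed, listed autosomal intergenic peaks in unique sequence, all autosomal listed peaks, all autosomal candidates, and positions of repeated 24-mers; error bars are exact 95% intervals. The listed members stand at 88.5%, above the 80.2% of repeated positions, which lies inside their interval.

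Chromosome IV held 98 members, of which 31 were listed, 10 in the left arm, 2 in the centre and 19 in the right arm. Chromosome III had 51 members and 16 listed, 12 of these in the left arm. On chromosome V 11 of 78 were listed, on chromosome I 13 of 74, and on chromosome II 7 of 51. Listed shares were 31.6% on chromosome IV and 31.4% on chromosome III, and between 13.7% and 17.6% on the others. Several of the listed regions on chromosome III share arrays.

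Overlap with each replicate's own lists was uneven among listed members. Among listed peaks that were no members, 374 of 387 overlapped a ranked candidate of replicate 1, 96.6%, and 379 one of replicate 2, 97.9%. Among listed members the shares were 66.7% (55.1% to 76.9%) and 97.4% (91.0% to 99.7%). Over all candidates they were 65.4% and 65.5%. Listed peaks of replicate 1 overlapped 35 of 78 listed members (44.9%), and those of replicate 2 overlapped 62 (79.5%), against 57.6% and 36.7% of listed peaks that were no members. Over all candidates these shares were 3.06% for replicate 1 and 2.63% for replicate 2. The conservative list held 41 of 78 listed members, 52.6%, against 81.4% of listed peaks that were no members and 4.67% of all candidates.

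Listed peaks of both replicates overlapped 26 of the 78 listed members, 33.3% (23.1% to 44.9%), and 36 were listed in replicate 2 alone against 9 in replicate 1 alone. Of those 36, 30 belonged to the 20-bp and 25-bp units, 15 to each. Without these units, 22 of 42 listed members were listed in both replicates, 52.4% (36.4% to 68.0%). Over all members, 179 of 352 had a ranked candidate in both replicates, 50.9% (45.5% to 56.2%). Among listed peaks that were no members, 36.7% were listed in replicate 2, so at most that share was listed in both. The share in both was not computed for them or for all candidates, nor was overlap with ranked candidates of both replicates. Over all candidates, 65.4% overlapped a ranked candidate of replicate 1 and 65.5% one of replicate 2. Whether these shares are particular to members was not tested.

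**Figure D5:**
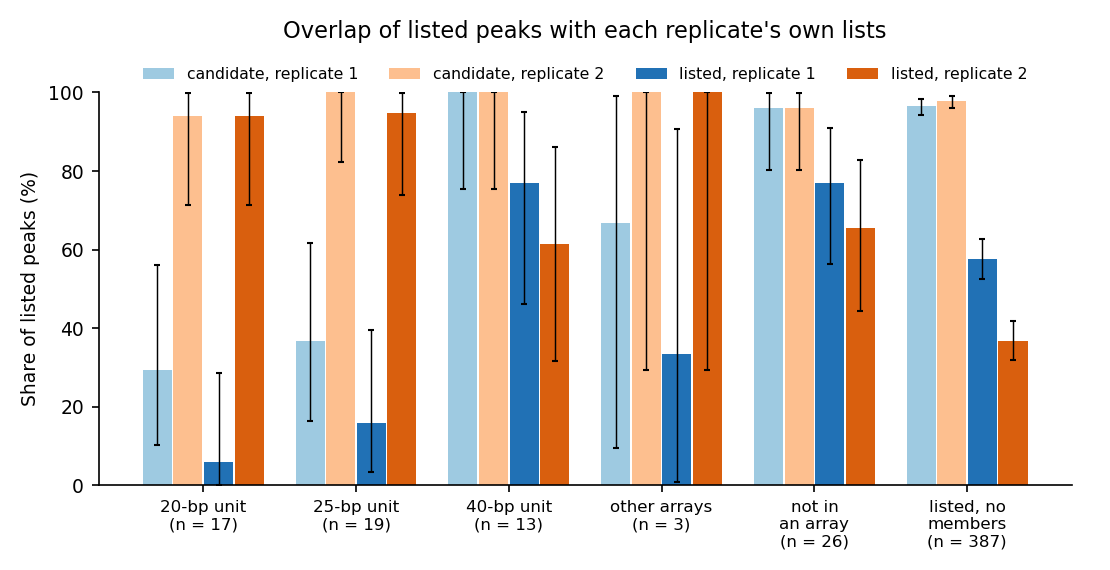
Share of listed peaks (%) that overlap a ranked candidate (light bars) or a listed peak (dark bars) of replicate 1 (blue) and replicate 2 (orange), for the 5 repeat groups and for listed peaks that are no members; error bars are exact 95% intervals. Replicate 1 holds a listed peak at 5.88% of listed 20-bp and 15.8% of listed 25-bp regions, and replicate 2 at 94.1% and 94.7%.

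Neither replicate's thresholded list held 7 of the 78 listed members. The strongest of the 7, at chrII:629195-629261, 541 bp downstream of the arrestin-domain gene arrd-1, held the 20-bp unit. Its signal was 150.5, and it overlapped no candidate of either replicate. The next, at chrIV:17155665-17155924, held the 40-bp unit, had a signal of 85.2 and ranked 395 in replicate 1 and 4094 in replicate 2. The third, at chrII:7756782-7757041, was 5 bp from B0228.1, with a signal of 81.3 and ranks of 1683 and 445.

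The rule's limit of 20% repeat share had no gap around it. The 3 members just inside it had a share of 20.2%, signals of 43.3 to 50.7, and none was listed. The 3 candidates just outside had 19.7%, signals of 36 to 44.6, and none was listed. Listing was more frequent at high repeat share, with 35 of 84 members listed above 80% and 16 of 121 between 20% and 40%. Without the 20-bp and 25-bp units, 10 of 55 members above 80% were listed.

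The nearest protein-coding genes included several large families that are known to lie on arms. Chemoreceptor genes were nearest to 27 members, 7.67%, and to 2.83% of 8164 autosomal candidates, but only 2 of those 27 members were listed. These 2 were 2.56% of listed members, beside 2.78% of all 396 autosomal listed peaks. F-box genes of the fbxa, fbxb and fbxc classes were nearest to 7 members, 1.99%, and to 0.833% of autosomal candidates. Of the 7, 4 were listed, 5.13% of listed members, beside 1.26% of autosomal listed peaks. Nuclear hormone receptor genes were nearest to 9 members, 2.56%, with 2 listed, and to 1.14% of autosomal candidates. C-type lectin genes were nearest to 5 members, 1.42%, against 0.772% of autosomal candidates, and MATH or BATH genes to 2, 0.568%, against 0.282%, in both cases with 0 members listed. Histone genes were nearest to 4 members, 1.14%, with 1 listed, against 0.318% of autosomal candidates. Collagen genes were nearest to 2 members, 0.568%, against 0.490%, and ribosomal protein genes to 1, 0.284%, against 0.661%, with 0 members listed in these classes. Among the 1459 autosomal intergenic candidates in unique sequence, the shares were 3.70% for chemoreceptor, 0.960% for F-box and 1.51% for nuclear hormone receptor genes. They were 0.754% for C-type lectin, 0.0685% for MATH or BATH, 0.343% for histone, 0.685% for collagen and 0.411% for ribosomal protein genes. Nearness gives no link between a region and the expression of the gene.

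Short RNA genes lay near a small part of the members. A tRNA gene was within 500 bp of the summit at 14 members, 3.98%, against 2.83% of autosomal candidates. Of these 14, 5 were listed, 6.41% of listed members, beside 14.1% of autosomal listed peaks. A piRNA gene was as near to 16 members, 4.55%, against 3.25% of autosomal candidates; 4 were listed, 5.13% of listed members, beside 4.29% of autosomal listed peaks. An snRNA gene was near 5 members, 1.42%, against 0.698% of candidates, and an snoRNA gene near 3, 0.852%, against 1.80%. No listed member was near either kind, beside 3.79% of autosomal listed peaks for snRNA genes and 11.9% for snoRNA genes. Unlike members, autosomal candidates and listed peaks can lie inside such genes. Of autosomal intergenic candidates in unique sequence, 1.03% were near a tRNA gene, and of the 42 listed ones 4.76%. These 2 shares were 5.21% and 4.76% for piRNA genes, 0.617% and 4.76% for snRNA genes, and 2.60% and 31.0% for snoRNA genes.

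A pseudogene lay within 500 bp of 38 members, 10.8%, against 3.99% of autosomal candidates and 12.5% of autosomal intergenic candidates in unique sequence. Of the 38, 13 were listed, 16.7% of listed members, against 6.06% of autosomal listed peaks and 4.76% of the 42 listed intergenic ones in unique sequence. The summit was inside a pseudogene at 15 members, 2 of them listed.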

How the data were processed

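ChIP-seq peak lists of 2 biological replicates of 1 group were used. Each replicate had a ranked and a thresholded list. The series had a larger pair, named after its thresholded list, and a conservative pair, and both draw on both replicates. These were 8 lists in all, on assembly ce11 per the labels. The aligner, the peak caller, the handling of reads that match several places, and all versions were not stated in the labels or read-me texts, and read depth is unknown. In repeated sequence the placing of such reads can set the value of a peak; its part was not tested.

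The signal value is a score that the authors deposited for each peak, with no scale shared between lists; it was used only within a list. The scaled IDR is also a deposited score, and the ranked lists hold a -log10 IDR that the authors deposited with a ceiling of 5. The summit was deposited as an offset in bp.

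Genes came from Ensembl release 115 and sequence from the RefSeq genome of the same build. Pseudogenes counted as intergenic. Both strands were searched for 24-mers. Peaks counted as overlapping where at least 50% of the shorter lay in the longer. Array loci were stretches with unit words at most 100 bp apart covering at least 100 bp. Python 3.11.15, numpy 2.4.6, pandas 2.3.3, scipy 1.17.1 and BLAST+ 2.17.0 were used, and the word counts and array measures were tested on simulated data with planted repeats. Named regions were the 12 listed members with the highest signal, the strongest member of each family with at least 5 members or 2 listed ones, the 3 strongest listed in neither replicate, and those next to the 20% limit. The members and lists were chosen with earlier results of these data known. The unit types, the array measure and the shared word were chosen after seeing the data. The motif GAANNTTC was not among the sequence features planned in advance. No test was made, since there was 1 group. Alternatives are given in the closing section.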

Additional observations from a re-analysis of the deposited data

Results flagged for a closer look

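As described above, 103 ranked candidates met the sequence rule and the IDR limit of 0.01 and were absent from the thresholded list, although 53 of the 100 ranked candidates with the highest signal were among them. They stand out because their signals are high and they enter neither the members nor the listed peaks on which the shares above rest. Why they were absent is not given in the sources used here and was not tested. With them counted as members and as listed, the listed share was 39.8% instead of 22.2%. That rise follows from the counting, since all of them had passed the limit.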

How the results depend on the processing

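Of 90 recomputed values, 55 lay within the 95% interval of the value above (or within 1.5 times the number of members) and 35 did not; no direction was under test, so none could reverse. The listed share of members was 30.2% with a repeat share above 50%, 27.3% with 36-mers, 16.8% at an IDR of 0.001, 11.9% in the conservative lists, 39.8% with left-out candidates added as listed, and 14.1% without the 20-bp and 25-bp units, a choice made after seeing the data. The listed share of dispersed members was 32.4% with a repeat share above 50%, 12.9% in the conservative lists, 16.6% at an IDR of 0.001, 32.3% with left-out candidates, 15.6% without the 2 units, and 13.8% where arrays of 200 bp counted as tandem, also chosen after seeing the data. That of tandem members was 5.56% in the conservative lists, 63.9% with left-out candidates and 5.00% without the 2 units. The tandem share was 24.9% with a repeat share above 50%, 26.5% with 36-mers, 8.52% with copies counted within 2 kb, 27.8% from a limit of 20% and 38.4% with arrays of 200 bp. A repeat share above 50% left 189 members. The median copy number was then 38.0, and it was 42.2 with 24-mers found 10 or more times, 18.0 with 36-mers and 7 by blastn at 90% identity. The arm share was 59.9% with the outermost 25% at each end as arms. Members with a candidate in both replicates made up 40.9% where summits had to lie within 50 bp, and 52.4% of listed members were listed in both replicates without the 2 units.

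Using only 1 replicate (leaving out replicate 1 or 2), the number of members ranged from 483 to 799, the listed share from 7.25% to 9.51%, that of tandem members from 1.79% to 9.74%, that of dispersed members from 7.96% to 9.47%, the tandem share from 11.6% to 14.1%, the arm share from 78.8% to 80.1% and the median copy number from 22 to 25. The causes of these differences were not tested. Over all ranked candidates, the listed share was 1.58% in replicate 1, 0.915% in replicate 2 and 3.49% in the conservative lists. Read depth is unknown, so what depth limits cannot be stated. No paired analysis was possible because there was 1 group.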
